A study of Mus musculus with 6 samples.

Results

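Platelets are small cell fragments shed by megakaryocytes, and 8 genes used as markers of both were followed in dental pulp of wild type (WT) and Mmp13-/- mice. The genes were taken by symbol from a table of 53342 Ensembl genes, and all 8 were found there: Pf4, Ppbp, Gp1ba, Gp1bb, Gp5, Gp6, Gp9 and Treml1. Pulp RNA came from 3 WT and 3 Mmp13-/- mice of the C57BL/6 strain aged 3 months, each library from an independent biological sample, and was sequenced to compare the transcripts of the genotypes. Mmp13-/- mice (MMP13KO in the labels) are homozygous for the loss of matrix metalloproteinase 13, a collagenase, the study's methods name male mice, and no other allele or treatment is given for either group. The labels name molars and a column kit, whereas the study's methods name incisors and TRIzol extraction. In the sample titles only the WT samples are named as molar, and those of the Mmp13-/- samples name no tooth. Whether the genotypes differed in tooth cannot be told from the titles. Libraries are called WT 2, 4 and 5 and Mmp13-/- 1, 2 and 6 after the replicate numbers in their labels.

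Megakaryocytes mature in the bone marrow and load their granules with chemokines, growth factors and clotting proteins before releasing platelets into blood. Platelets catch on a damaged vessel wall when the GPIb-IX-V receptor complex binds von Willebrand factor, and are then activated when GPVI binds exposed collagen. Platelets carry RNA made by the megakaryocyte but have no nucleus, so pulp RNA can hold these transcripts through the blood in its vessels. In bulk tissue a smaller number of such cells and less RNA in each of them cannot be told apart.

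Library totals ranged from 28442936 to 29980236 estimated counts in WT samples and from 21561420 to 26547121 in Mmp13-/- samples. Mmp13 itself stood at 999.8, 1061 and 818 normalized counts in WT samples 2, 4 and 5, against 8.76, 29.8 and 63.4 in Mmp13-/- samples 1, 2 and 6. Normalized counts here are estimated counts corrected for library size with TMM factors and set to the mean library. Dspp, the defining gene of odontoblasts, was high in every sample, at 14196 normalized counts or more. The gene with the most counts was Ttn, the giant protein of muscle, in the 3 WT samples and Mmp13-/- sample 1, whereas Gm10800 took 6.88% of the counts of Mmp13-/- sample 2 and 30.5% of those of sample 6. Odorant and vomeronasal receptor genes, whose products serve the nose, had summed CPM (counts scaled to a common library size) of 17.8 to 20.8 in WT samples, against 308, 356 and 1197 in Mmp13-/- samples 1, 2 and 6. Mmp13-/- sample 6 thus stood apart, and results are also given without it below.

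Of the 8 genes, 4 were higher in Mmp13-/- pulp by more than 2-fold with an adjusted p under 0.05 (edgeR quasi-likelihood test, Benjamini-Hochberg adjustment over the 24534 genes tested). They were Ppbp, Gp6, Gp9 and Pf4. None was lower by that rule, and the same 4 genes passed when the fold was left out of it. Of all genes tested, 30.1% were called, 20.4% higher and 9.68% lower, and 51.6% passed at any fold, 27.3% higher. The median log2 fold change was 1.01 over the 8 genes and 0.10 over all genes tested. The genotypes did not overlap for 5 of the 8, with every Mmp13-/- sample above every WT sample for 4 and below for Gp1ba, whereas 60.9% of all genes tested did not overlap, 31.8% with Mmp13-/- samples above. All 8 passed the filter on low counts, and all had at least 10 estimated counts in every sample after rounding.

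**Figure D1:**
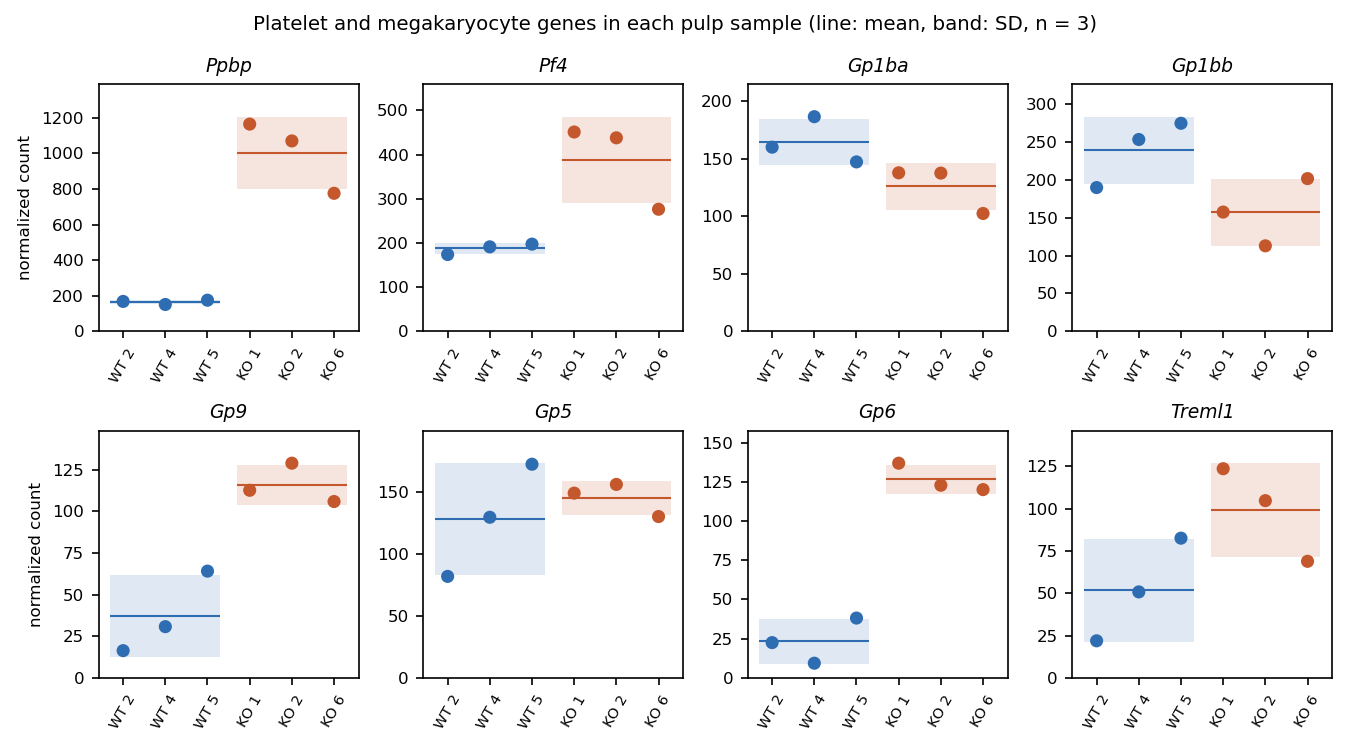
Normalized counts of the 8 genes in each of the 6 samples, 1 panel per gene, with a line at the mean and a band for the SD of each genotype. Ppbp, Pf4, Gp6 and Gp9 had every Mmp13-/- sample above every WT sample, Gp1ba had every one below, and the other 3 genes overlapped.

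Pf4 and Ppbp encode platelet factor 4 (CXCL4) and pro-platelet basic protein (CXCL7), CXC chemokines stored in the alpha granules and released on activation. They lie on the same strand of chromosome 5 in GRCm38, Ppbp (ENSMUSG00000029372) at chr5:90768518-90770063 and Pf4 (ENSMUSG00000029373) at chr5:90772435-90773383, 2372 bases apart. Both have 3 exons. Because these neighbours differed in the size of their change, the 250 bases before each RefSeq start are shown 5′ to 3′ on the gene's strand (RefSeq, GRCm38.p6), Ppbp at chr5:90768268-90768517 and Pf4 at chr5:90772185-90772434, both plus strand. Capitals mark matches to the letters that GATA factors are known to read (the letters AGATAA, the letters AGATAG, the letters TGATAA and the letters TGATAG) and that ETS factors are known to read (the letters AGGAAG and the letters CGGAAG), searched on both strands, and no match overlapped another.
Ppbp: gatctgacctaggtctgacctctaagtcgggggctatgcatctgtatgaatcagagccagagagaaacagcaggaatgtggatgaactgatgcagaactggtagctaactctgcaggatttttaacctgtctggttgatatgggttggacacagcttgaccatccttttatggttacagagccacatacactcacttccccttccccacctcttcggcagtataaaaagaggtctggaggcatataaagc
Pf4: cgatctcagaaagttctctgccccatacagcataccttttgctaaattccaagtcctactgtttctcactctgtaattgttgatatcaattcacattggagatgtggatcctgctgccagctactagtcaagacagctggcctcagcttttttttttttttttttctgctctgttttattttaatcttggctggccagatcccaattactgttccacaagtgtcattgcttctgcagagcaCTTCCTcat
The Ppbp window held no match to either motif and the Pf4 window held 1 ETS match, 4 to 9 bases before the start. Of 32851 mouse promoter windows of this length, 26.5% held a GATA match, 39.2% an ETS match and 9.21% both. A match is a description of letters, not of a bound site.

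Ppbp had the largest fold change of the 8 genes in the edgeR test of all samples with TMM factors. Its normalized counts were 168, 151 and 175 in WT samples 2, 4 and 5, against 1165, 1071 and 776 in Mmp13-/- samples 1, 2 and 6. Even the lowest Mmp13-/- sample stood far above the highest WT sample, and the WT values lay close together. The mean rose 6.11-fold, from 164 ± 12.4 to 1004 ± 203 (SD, n = 3 each), a log2 fold change of 2.61 with a standard error of 0.18 and an adjusted p of 2.73e-05 in edgeR.

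Pf4 started at a similar count and had a smaller fold change. Its normalized counts were 174, 191 and 197 in WT samples, against 451, 438 and 276 in Mmp13-/- samples, in the same order of replicates. Samples 1 and 2 of the Mmp13-/- group were alike and sample 6 was lower, but the genotypes did not overlap. From 187 ± 12.2 the mean went to 389 ± 97.4 (SD, n = 3 each), which is 2.08-fold and 1.06 on the log2 scale (standard error 0.20, adjusted p = 0.00205 in edgeR). This is just past the 2-fold criterion, and the log2 fold change fell under it to 0.93 without WT sample 2, 0.88 without Mmp13-/- sample 1 and 0.91 without Mmp13-/- sample 2, with the adjusted p at or under 0.0130 whichever sample was left out.

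The ratio of the 2 chemokine transcripts within a sample does not depend on how libraries are scaled, but it was not corrected for GC content. With the GC correction described below, the log2 fold changes of Ppbp and Pf4 came closer together, from 2.61 and 1.06 to 2.15 and 1.38. Ppbp had 0.966, 0.788 and 0.885 estimated counts per Pf4 count in WT samples, against 2.58, 2.44 and 2.81 in Mmp13-/- samples. The ratio was below 1 in every WT sample and above 2 in every Mmp13-/- sample, and it varied little within a genotype, Mmp13-/- sample 6 included. An exact permutation test (two-sided) gave p = 0.1, the smallest that 3 samples against 3 can give, and 0.14 after Benjamini-Hochberg adjustment over 7 ratios.

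The other CXC chemokine genes of this cluster did not pass the test. They encode chemokines that draw neutrophils, and 4 of the 5 listed could be tested. None of the 4 was called, and their median log2 fold change was 0.24. Cxcl5, 6894 bases from Ppbp, stood at 0.38 ± 0.38 (SE) on the log2 scale with an adjusted p of 0.420 in edgeR, and Cxcl3, 12720 bases from Pf4, at 0.59 ± 0.59 with 0.423. Cxcl1 had -0.74 with an adjusted p of 0.231 in edgeR. Cxcl15 was at 0 in all WT samples and was not tested.

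The GPIb-IX-V complex is built from the products of Gp1ba, Gp1bb, Gp9 and Gp5, and its transcripts did not share a call. Gp1ba encodes the chain that binds von Willebrand factor, Gp1bb the chain linked to it by disulfide bonds, Gp9 a small chain needed to bring the complex to the surface, and Gp5 a more loosely held subunit that thrombin can cleave. Gp9 was higher in Mmp13-/- pulp, whereas the other 3 did not pass the test. The promoter windows of Gp9 and Gp1ba are shown because these partners differed in call and in sign, Gp9 at chr6:87777820-87778069 and Gp1ba at chr11:70638872-70639121, both plus strand in GRCm38.p6, with capitals as above.
Gp9: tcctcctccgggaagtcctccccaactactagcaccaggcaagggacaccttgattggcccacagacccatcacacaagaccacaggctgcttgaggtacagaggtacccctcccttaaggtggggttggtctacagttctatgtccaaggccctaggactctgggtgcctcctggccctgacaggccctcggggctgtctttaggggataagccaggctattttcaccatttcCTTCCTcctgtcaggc
Gp1ba: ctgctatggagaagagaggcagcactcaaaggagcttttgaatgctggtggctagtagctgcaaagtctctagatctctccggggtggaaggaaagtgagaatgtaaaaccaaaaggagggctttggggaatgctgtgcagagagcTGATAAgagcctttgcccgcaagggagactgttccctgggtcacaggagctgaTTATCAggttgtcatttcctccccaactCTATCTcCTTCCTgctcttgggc
The Gp9 window held 1 ETS match and no GATA match, and the Gp1ba window held 3 GATA matches and 1 ETS match. Over the 8 genes, 4 windows held a GATA match, 5 an ETS match and 3 both (Gp1ba, Gp1bb and Gp5), and Treml1 like Ppbp held neither.

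Gp9 (ENSMUSG00000030054, chr6:87778072-87779768 in GRCm38, plus strand) was low and uneven in WT pulp. Normalized counts were 16.3, 30.7 and 64.1 in WT samples 2, 4 and 5, against 113, 129 and 106 in Mmp13-/- samples 1, 2 and 6. The WT samples spread widely and the Mmp13-/- samples hardly at all, without overlap. The mean was 37.0 ± 24.5 in WT and 116 ± 11.9 in Mmp13-/- pulp (SD, n = 3 each), 3.15-fold higher, with a log2 fold change of 1.65, a standard error of 0.42 and an adjusted p of 0.00807 in edgeR. Without WT sample 2, the lowest, the log2 fold change was 1.22, and without WT sample 5, the highest, it was 2.23.

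Gp1ba (ENSMUSG00000050675, chr11:70639122-70642036, plus strand) had normalized counts of 160, 186 and 147 in WT samples, against 138, 137 and 102 in Mmp13-/- samples. Every Mmp13-/- sample lay below every WT sample, by a narrow margin for 2 of them. The means were 164 ± 20.0 and 126 ± 20.3 (SD, n = 3 each), and the log2 fold change of -0.38 (standard error 0.20) did not pass the test, with an adjusted p of 0.137 in edgeR.

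Gp5 (ENSMUSG00000047953, chr16:30307685-30310779, minus strand) had 81.7, 129 and 172 normalized counts in WT samples, against 149, 156 and 130 in Mmp13-/- samples. The WT samples ran from below to above all Mmp13-/- samples, so the genotypes overlapped. The log2 fold change was 0.19 with a standard error of 0.26 and an adjusted p of 0.578 in edgeR. It was -0.13 without WT sample 2.

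Gp1bb (ENSMUSG00000050761, chr16:18620317-18622403, minus strand) had 190, 253 and 275 normalized counts in WT samples, against 158, 113 and 202 in Mmp13-/- samples. Mmp13-/- sample 6 lay above WT sample 2, and the other Mmp13-/- samples lay below all WT samples. The log2 fold change was -0.61, with a standard error of 0.24 and an adjusted p of 0.0532 in edgeR. It passed in the lower direction, under 2-fold, without Mmp13-/- sample 6, at -0.82 with an adjusted p of 0.0225 in edgeR, and without WT sample 2, at -0.83 with 0.0172. Its counts are uncertain, since 1902 of its 2087 exon bases (91.1%) are also exon of Sept5, a septin gene on the same strand, and 867 (41.5%) of Gm49601. Sept5 fell by 0.86 on the log2 scale in Mmp13-/- pulp (standard error 0.16, adjusted p = 0.00199 in edgeR), and how reads were divided between these genes is not given in the sources used here.

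Within samples, Gp9 had 0.102, 0.165 and 0.436 estimated counts per Gp1ba count in WT pulp, against 0.819, 0.939 and 1.04 in Mmp13-/- pulp. The genotypes did not overlap, and WT sample 5 was well above the other WT samples. Per Gp5 count, Gp9 had 0.199, 0.237 and 0.372 in WT samples, against 0.757, 0.827 and 0.815 in Mmp13-/- samples, again without overlap. Both comparisons reached p = 0.1 in the exact permutation test (two-sided), the smallest possible, and 0.14 after adjustment over the 7 ratios. Gp5 and Gp1ba stayed closer, with Gp5 at 0.511, 0.695 and 1.17 counts per Gp1ba count in WT samples, against 1.08, 1.14 and 1.27 in Mmp13-/- samples, and an exact permutation p of 0.3. Gp1bb per Gp1ba overlapped between the genotypes, with an exact permutation p of 0.7.

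**Figure D2:**
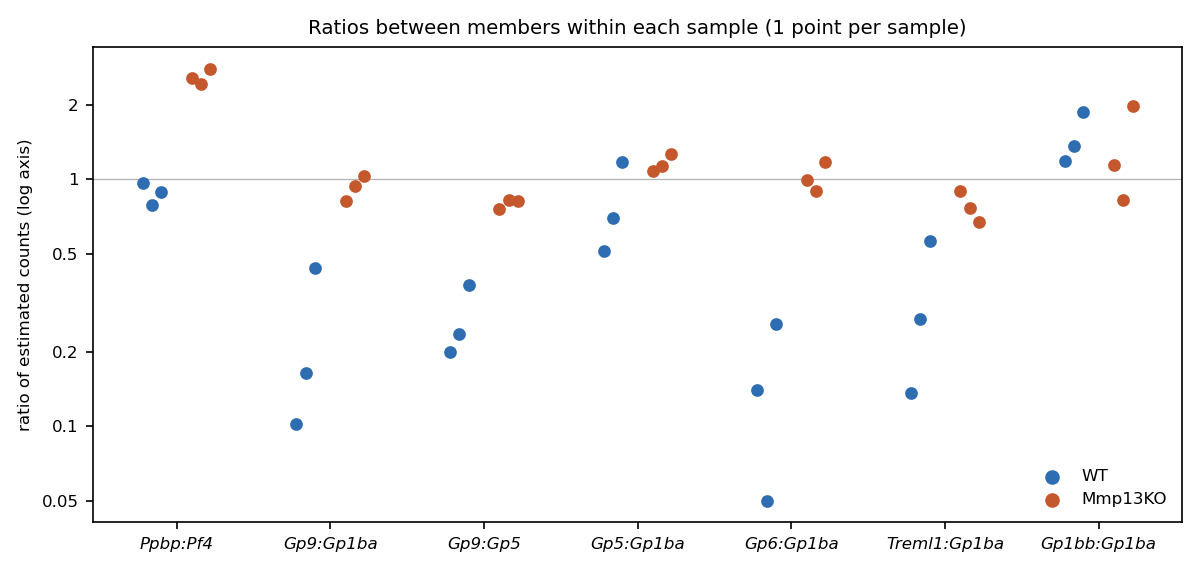
Ratios of estimated counts between members within each sample on a log axis, with WT and Mmp13-/- samples in different colours and no correction for GC content. Ppbp per Pf4 lay at 0.788 to 0.966 in WT and 2.44 to 2.81 in Mmp13-/- samples, and Gp9 per Gp1ba at 0.102 to 0.436 and 0.819 to 1.04.

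Gp6 encodes glycoprotein VI, the collagen receptor of platelets, which signals through the Fc receptor gamma chain. It lies at chr7:4363965-4397744 in GRCm38 on the minus strand (ENSMUSG00000078810) and has 8 exons. Its promoter window, at chr7:4397745-4397994 on the minus strand in GRCm38.p6, is shown because Gp6 had the largest change of the receptor genes in the edgeR test of all samples with TMM factors, and it held 1 GATA match, 139 to 144 bases before the start.
Gp6: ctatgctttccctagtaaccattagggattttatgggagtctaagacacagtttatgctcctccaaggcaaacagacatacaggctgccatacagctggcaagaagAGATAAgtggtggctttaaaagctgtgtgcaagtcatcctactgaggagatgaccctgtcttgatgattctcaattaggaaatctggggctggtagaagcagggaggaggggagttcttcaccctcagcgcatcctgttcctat
Normalized counts of Gp6 were 22.4, 9.30 and 38.1 in WT samples 2, 4 and 5, against 137, 123 and 120 in Mmp13-/- samples 1, 2 and 6. The Mmp13-/- samples were nearly level and the WT samples were all much lower, but uneven. The mean rose 5.42-fold, from 23.3 ± 14.4 to 127 ± 9.04 (SD, n = 3 each), and the log2 fold change of 2.44 had a standard error of 0.41 and an adjusted p of 0.000982 in edgeR. Gp6 is long, with 5900 exon bases, and was the least abundant of the 8 genes per kilobase. The rate of counts per kilobase over 1452 odorant and vomeronasal receptor genes serves as a measure of background reads, and in Mmp13-/- sample 6 Gp6 was 2.71 times that rate, against 18.0 and 13.1 times in Mmp13-/- samples 1 and 2. Without sample 6 the log2 fold change of Gp6 was 2.48, and with the background rate subtracted from every sample it was 2.40.

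Treml1 encodes the TREM-like transcript 1 receptor of the alpha granules, which reaches the surface on activation (ENSMUSG00000023993, chr17:48359916-48367176, plus strand). Its normalized counts were 21.9, 50.8 and 82.6 in WT samples, against 124, 105 and 68.9 in Mmp13-/- samples. Mmp13-/- sample 6 lay below WT sample 5, so the genotypes overlapped. The means were 51.8 ± 30.4 and 99.1 ± 27.8 (SD, n = 3 each), and the log2 fold change of 0.97 (standard error 0.43) had an adjusted p of 0.0817 in edgeR. Treml1 was called without WT sample 5, at 1.40 with an adjusted p of 0.0210 in edgeR, and without WT sample 2 its log2 fold change was 0.53. Per Gp1ba count, Treml1 had 0.137, 0.273 and 0.562 in WT samples, against 0.899, 0.763 and 0.674 in Mmp13-/- samples, without overlap. Gp6 per Gp1ba count was 0.140, 0.0499 and 0.259 in WT samples, against 0.996, 0.895 and 1.17 in Mmp13-/- samples. For both ratios the exact permutation p was 0.1, the smallest possible.

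Levels were compared between genes as CPM per kilobase of exon. In WT pulp Pf4 was highest at 9.60 ± 0.624, followed by Ppbp at 5.60 ± 0.422 and Gp1bb at 4.23 ± 0.781 (SD, n = 3 each), and these 3 did not overlap between samples. Gp1ba at 2.23 ± 0.272, Gp5 at 2.15 ± 0.760, Gp9 at 1.55 ± 1.03 and Treml1 at 1.36 ± 0.799 came next, and neighbours in this order overlapped. Gp6 was lowest, at 0.146 ± 0.090, below all others in every sample. In Mmp13-/- pulp Ppbp passed Pf4, at 34.2 ± 6.92 against 19.9 ± 4.99, and Gp9 at 4.85 ± 0.496 passed Gp1bb at 2.78 ± 0.786. Treml1 at 2.61 ± 0.732 and Gp5 at 2.44 ± 0.225 overlapped with Gp1bb. Gp1ba at 1.71 ± 0.276 and Gp6 at 0.792 ± 0.057 were the lowest.

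The genes next to the receptor genes are given beside them, where 51.6% of all genes tested passed at any fold. Beside Gp1ba, 2160 bases away, lies Slc25a11, a mitochondrial carrier, at -0.81 on the log2 scale (adjusted p = 0.00421 in edgeR). Beside Gp9 lies Rab43 at 9085 bases, with -0.65 (adjusted p = 0.00793 in edgeR). In the groups of genes by GC content described below, those holding Slc25a11 and Rab43 had medians of -0.57 and -0.72. On 1 side of Treml1 lies Trem2, a microglial and macrophage receptor, with 0.66 (adjusted p = 0.0681 in edgeR). On the other side lies Nfya, with 0.17 (adjusted p = 0.409 in edgeR). The genes on either side of Gp5, Atp13a3 and Lrrc15, had -0.055 and 0.068, and neither passed the test. Gp6 encloses annotated miRNA genes, Gm25349 and Gm24752, that share no exon with it and were too low to test.

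Other genes of the platelet and megakaryocyte programme moved in part. Of 48 such genes in 4 lists, all tested, 19 were called higher, 1 lower and 28 were not called, and their median log2 fold change was 0.64, against 20.4% called higher and a median of 0.10 over all genes. Among megakaryocyte transcription factors, 4 of 9 were higher, with a median of 0.43. Those 4 were Nfe2, needed for platelet release, at 1.40, Gata1 at 1.32, Gfi1b, a repressor, at 1.18 and Tal1 at 1.08. Of the factors outside this count, Fli1 passed the test at 0.43 and Runx1, at -0.44, passed it in the other direction, both under 2-fold. Zfpm1 at -0.29, Meis1 at -0.27 and Lyl1 at -0.079 did not pass. Most erythroid and neutrophil markers, given below, were also called higher. Which cells the transcripts of the 48 genes came from was not tested.

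Of 15 other surface receptors and partners, 4 were higher, with a median log2 fold change of 0.57. Cd226, an adhesion receptor that T and NK cells also carry, had 1.81, 4.24 and 11.5 normalized counts in WT samples, against 128, 109 and 93.0 in Mmp13-/- samples, or 4.15 ± 0.49 (SE) on the log2 scale with an adjusted p of 0.000175 in edgeR. Clec1b, the podoplanin receptor CLEC-2, had 3.74, 10.9 and 21.8 in WT, against 111, 159 and 127 in Mmp13-/- samples, or 3.44 ± 0.46 (SE) on the log2 scale with an adjusted p of 0.000322 in edgeR. Both were near the bottom of the measurable range in WT pulp and did not overlap between genotypes. In Mmp13-/- sample 6, Cd226 was 2.53 times and Clec1b 3.31 times the background rate of the receptor genes. The others of the 4 were the nucleotide receptors P2ry12 at 1.79 and P2rx1 at 1.50. Itga2b and Itgb3, the chains of the fibrinogen receptor, overlapped between genotypes, at 0.57 and 0.33 with adjusted p of 0.0956 and 0.296 in edgeR.

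Of 12 genes for granule cargo and platelet production, 6 were higher and 1, the growth factor gene Pdgfb, was lower, at -1.20. The median log2 fold change over the list was 0.77. Pdgfb was not called lower with the GC correction described below. F13a1, a clotting factor chain that macrophages also make, had 211, 172 and 206 normalized counts in WT samples, against 999, 1286 and 1032 in Mmp13-/- samples, or 2.50 ± 0.17 (SE) on the log2 scale with an adjusted p of 1.95e-05 in edgeR. Mmrn1, multimerin, rose by 2.57 on the same scale (adjusted p = 2.73e-05 in edgeR), and Tubb1, the tubulin of the platelet rim, by 1.18. Vwf and Selp, which endothelium also makes, had -0.21 and 0.43, and neither passed the test. Of 12 activation and thromboxane signalling genes, 5 were higher, with a median of 0.76. Plek, the main protein kinase C substrate of platelets, had 2.71 and the kinase gene Btk 2.23, whereas Rasgrp2 and Fermt3 had 0.20 each and did not pass the test. P2ry12, P2rx1, Fli1, Runx1, Zfpm1, Meis1, Lyl1, Pdgfb and Tubb1 are named after their values were seen. Replicate 2 was the lowest WT sample for 32 of the 48 genes and for 5 of the 8 members, against 34.6% of all genes tested.

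**Figure D3:**
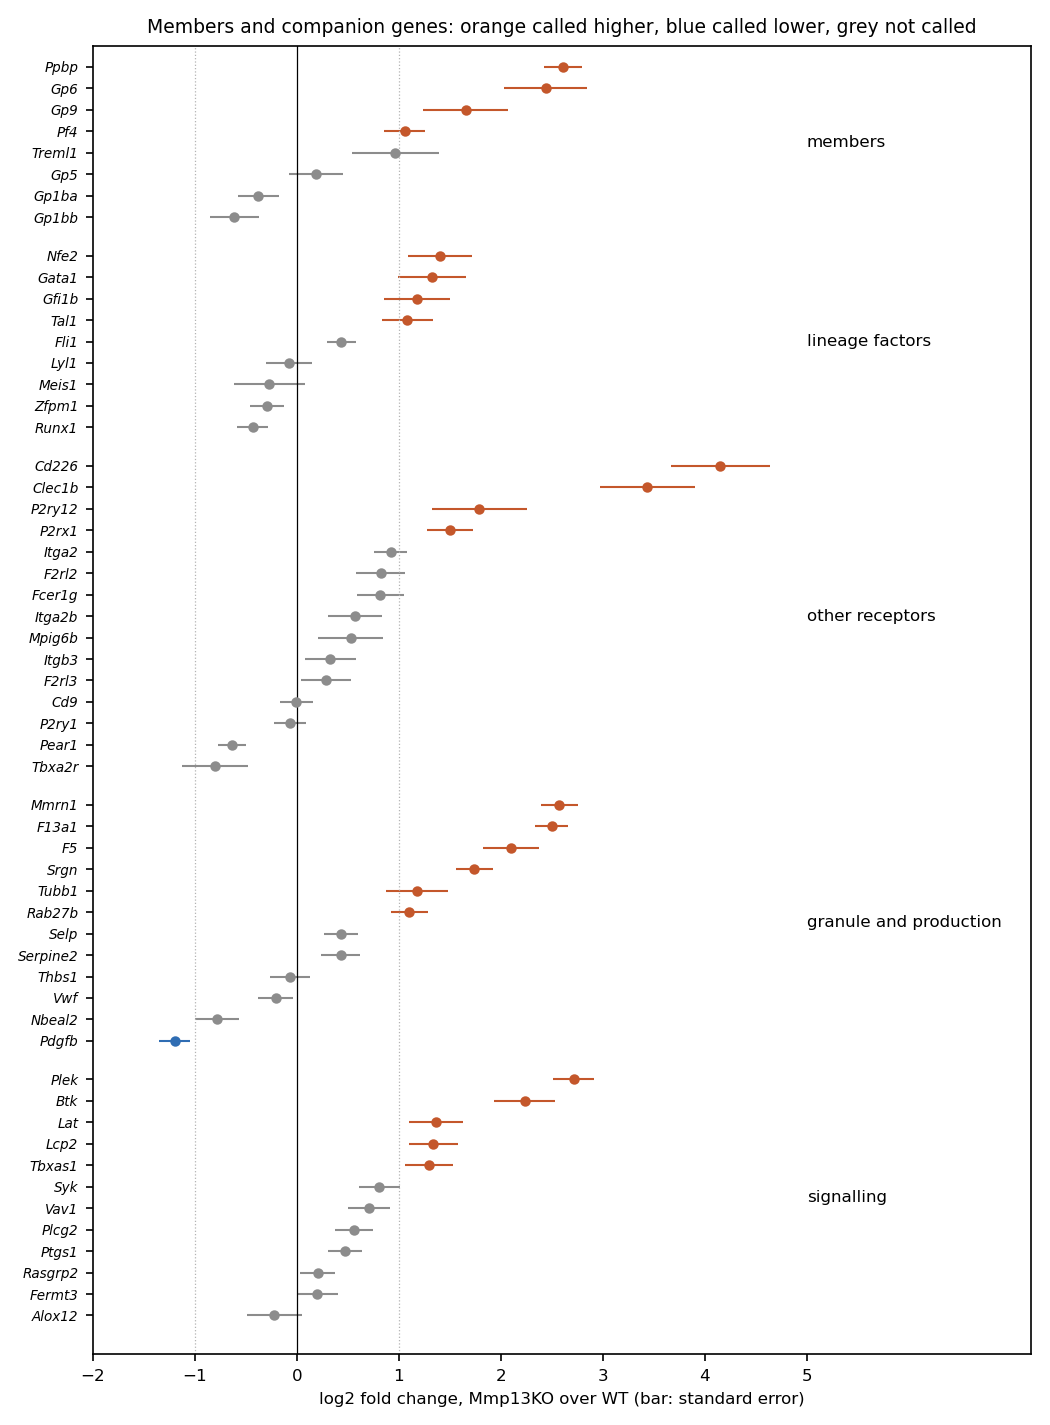
Log2 fold change, Mmp13-/- over WT, with its standard error for the 8 members and the 48 companion genes in their 4 lists, with genes called higher in orange, called lower in blue and not called in grey, and dotted lines at 2-fold. Ppbp at 2.61 and Gp6 at 2.44 led the members, and Cd226 at 4.15 and Clec1b at 3.44 led the companion genes. Pdgfb at -1.20 was the 1 gene called lower, and no value shown was corrected for GC content.

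Most erythroid and neutrophil markers were called higher in Mmp13-/- pulp, as were 4 of the 8 genes. Of all genes tested, 20.4% were called higher. Summed over the 8, CPM were 30.8, 37.0 and 42.5 in WT samples 2, 4 and 5, against 89.8, 83.8 and 65.7 in Mmp13-/- samples 1, 2 and 6. Ppbp and Pf4 made up most of the Mmp13-/- sums, at 43.0, 39.5 and 28.6 CPM and at 16.7, 16.2 and 10.2 CPM. In WT samples Ppbp had 6.19, 5.56 and 6.45 CPM and Pf4 had 6.41, 7.06 and 7.28 CPM. Of 8 erythroid markers, 6 were called higher and 0 lower, and their sum ranged from 62.9 to 128 CPM in WT and from 177 to 382 CPM in Mmp13-/- samples, with Rhag at a log2 fold change of 3.16 and Alas2 at 1.80, while Klf1, at 0.53, did not pass. Of 10 neutrophil and granulocyte precursor markers, 9 were higher and 0 lower, from 144 to 301 CPM in WT and from 723 to 1772 CPM in Mmp13-/- samples, with Elane at 1.53 and Mpo at 1.23. WT sample 2 was the lowest of the WT samples for all 8 of the first list and all 10 of the second. Mmp13-/- sample 6 had the lowest sum of its group for both lists, as it did for the 8 genes together.

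Markers of other cell types were mixed, where 20.4% of all genes tested were called higher and 9.68% lower. Of 10 tissue macrophage markers, 4 were higher, from 143 to 150 CPM in WT and from 200.1 to 252 CPM in Mmp13-/- samples, with Mrc1 at 1.76 and Adgre1 at 1.38 on the log2 scale. Csf1r, at 0.44 with an adjusted p of 0.0510 in edgeR, did not pass, and the median over the list was 0.62. Of 9 mast cell and basophil markers tested, 4 were higher, and their median log2 fold change of 1.42 was above that of the 8 genes. Cpa3 was at 2.81 and Mcpt4 at 1.44 (adjusted p = 0.0515 in edgeR, not passed), and Ms4a2 had at most 1.98 normalized counts in WT samples and more than that in every Mmp13-/- sample, up to 47.9. The list summed to 37.9 to 49.5 CPM in WT and 62.7 to 66.2 CPM in Mmp13-/- samples, and most of it was Kit, with 26.1 to 40.1 CPM in WT and a log2 fold change of 0.29. Fcer1a was at 0 in at least 1 sample and was not tested. Endothelial markers, which stand for the vessels that hold the blood, summed to 383 to 426 CPM in WT and 239 to 333 CPM in Mmp13-/- samples, with a median log2 fold change of -0.66. Of the 10, 7 passed in the lower direction at any fold and did not overlap between genotypes, 1 of them by more than 2-fold, with Tie1 at -0.88 and Cdh5 at -0.45. Of all genes tested, 51.6% passed at any fold, 27.3% higher, and 60.9% did not overlap, 31.8% with Mmp13-/- samples above. Emcn was called higher, at 1.47, and Pecam1, at 0.094, did not pass. In the groups of genes by GC content described below, those holding Tie1, Cdh5, Pecam1 and Emcn had medians of -0.72, -0.39, -0.21 and 0.99. Whether the amount of vessel differed was not tested. Odontoblast markers, a check of the labelled tissue, were abundant in every sample, at 55459 to 62148 CPM in WT and 17424 to 23054 CPM in Mmp13-/- samples, with 3 of 10 higher and 3 lower. Col1a1 was the largest part of that sum, at 35399 to 42196 CPM in WT and 7919 to 10186 CPM in Mmp13-/- samples, and was called lower, at -2.16. Dspp, at 1.13, and Ibsp, at 1.56, were called higher, although Dspp overlapped between genotypes. Dmp1, at -0.22, did not pass. The part of each cell type in the changes of the 8 genes was not tested.

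**Figure D4:**
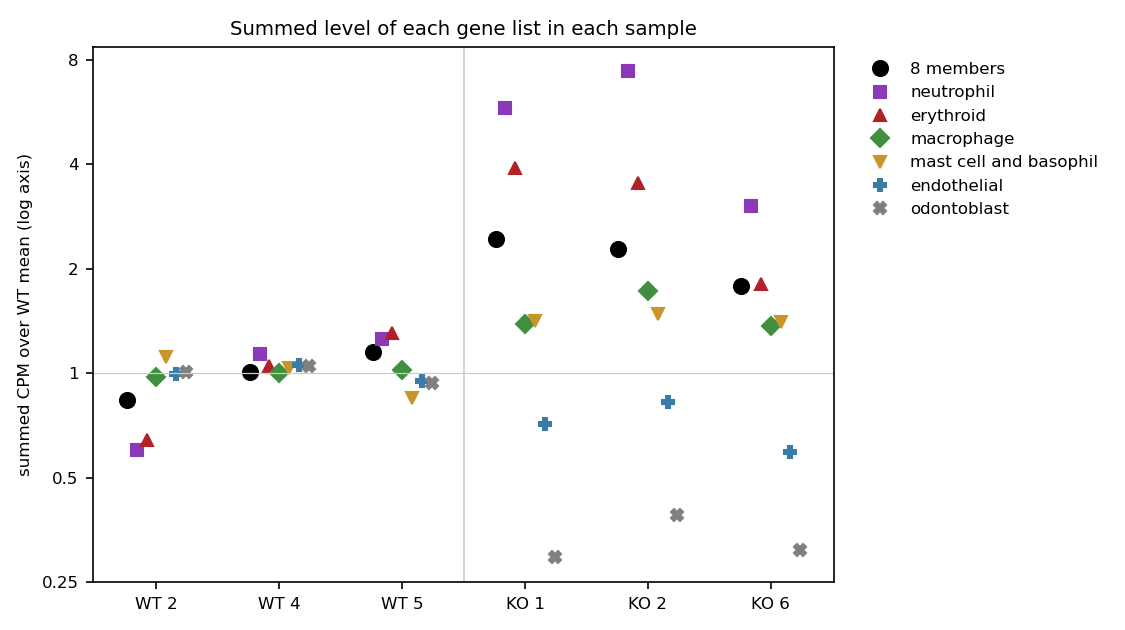
Summed CPM of the 8 genes and of 6 marker lists in each sample, divided by the WT mean of the list, on a log axis (Mmp13-/- samples are marked KO). The 8 genes stood at 2.44, 2.28 and 1.79 times the WT mean in Mmp13-/- samples 1, 2 and 6, below the neutrophil and erythroid markers and above the macrophage, mast cell, endothelial and odontoblast markers. Ppbp and Pf4 made up most of the sum of the 8 genes in Mmp13-/- samples, and Col1a1 was the largest part of the odontoblast sum.

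Fold changes also moved with the GC content of transcripts. Over 19084 genes with a mean of at least 1 CPM, divided into 10 groups by GC content, the median log2 fold change was 0.99 in the group of lowest GC content and -0.98 in the highest. Ppbp and Gp6, at 42.4% and 43.1% GC, fell in a group with a median of 0.57. Gp9, Gp5 and Gp1bb, at 58.3% to 62.0% GC, fell in the group with the median of -0.98. After each sample was corrected for GC content, Ppbp had 2.15, Gp6 2.09, Pf4 1.38 and Gp9 2.67, and all 4 were again called. Gp5 at 1.27 (adjusted p = 0.00729 in edgeR) and Treml1 at 1.82 (adjusted p = 0.0138 in edgeR) were then called as well, while Gp1ba at 0.095 and Gp1bb at 0.67 turned positive without passing the test. That made 6 of 8 called, all higher, where 20.1% of all genes were called with the correction, 17.7% higher. The part of GC content in the uncorrected changes was not tested.

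**Figure D5:**
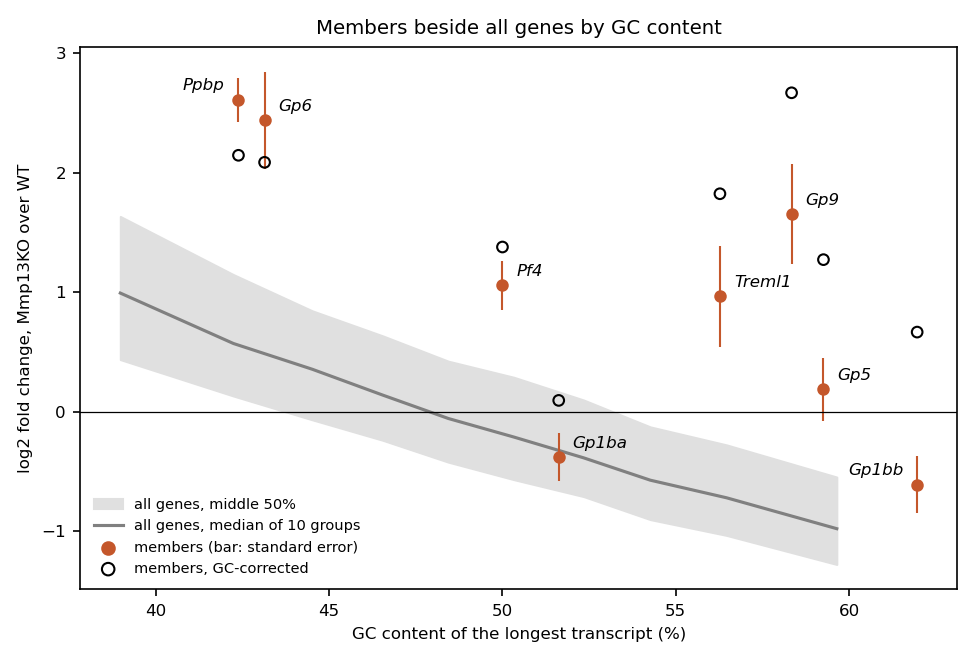
Log2 fold change, Mmp13-/- over WT, against GC content for the 8 genes (filled points with standard errors, open circles after GC correction), over the median and the middle 50% of all genes in 10 GC groups. Ppbp at 2.61, Gp6 at 2.44, Pf4 at 1.06 and Gp9 at 1.65 lay above the band at their GC content. Treml1 at 0.97 and Gp5 at 0.19, not called without the correction, also lay above it. Gp1ba at -0.38 and Gp1bb at -0.61 lay within the middle 50% of their GC groups.

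WT sample 2 and Mmp13-/- sample 6 were the lowest of their groups for most of the 8 genes, 5 and 7 respectively. With both left out, the same 4 genes were called, Ppbp at 2.78, Gp6 at 2.45, Gp9 at 1.34 and Pf4 at 1.19 on the log2 scale. Treml1 was then at 0.79, Gp5 at 0.012, Gp1ba at -0.28 and Gp1bb at -0.96, which passed in the lower direction under 2-fold (adjusted p = 0.00778 in edgeR). With background subtracted, Ppbp had 2.76, Gp9 1.78 and Pf4 1.20, and 4 genes were called, where 24.6% of all genes were. Against a test of the 2-fold change itself, Ppbp and Gp6 passed, while Gp9 and Pf4 had adjusted p of 0.128 and 0.577 in edgeR, and 12.4% of all genes passed.

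The mean profile of the 8 genes over the 6 samples was taken as centred log2 CPM, and all genes tested were ranked by their root mean square difference from it. The nearest genes outside the 8 were Plscr1, a phospholipid scramblase, at 0.0934, Gm42549 at 0.105, Ube2l6, a ubiquitin and ISG15 conjugating enzyme, at 0.110, Rab27b, a granule-secretion GTPase of platelets, at 0.112 and Gas2l3 at 0.112. Plscr1 had 45.5, 58.5 and 76.1 normalized counts in WT samples, against 128, 139 and 120 in Mmp13-/- samples. Rab27b had 347, 349 and 523 in WT samples, against 915, 858 and 843 in Mmp13-/- samples. Of the members, Pf4 lay closest to their mean profile, at 0.229, and Gp6 and Gp1bb farthest, at 0.934 and 0.902.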

How the data were processed

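Pulp RNA of 3 WT and 3 Mmp13-/- mice was sequenced by the study in paired-end mode and grouped here by the genotype in the labels. The authors made the deposited estimated counts per gene in Strand NGS, and they carry fractions. The authors also deposited normalized log2 values, which were used here only in 1 alternative. The submitters' processing notes name DESeq and the build mm10, and the aligner and annotation release are not given in the sources used here. Positions, exon length and GC content (of the longest transcript) came from GENCODE M21 of GRCm38, matched for 99.8% of genes.

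Counts were rounded to whole numbers, and genotypes were compared by edgeR 4.0.16 under R 4.3.3 (quasi-likelihood test, TMM factors, filterByExpr by genotype, Benjamini-Hochberg adjustment over all genes tested, no covariate). A gene was called at an adjusted p under 0.05 and a change over 2-fold. SD and n refer to samples. The study states a gene-by-gene test with Storey correction, and the count test was used in its place because the deposited values are counts. A count of 3 was taken as the floor, at most 0.139 CPM, and covers counting error only.

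Alternatives were RLE, upper-quartile or no factors, TMM without the 100 most abundant genes, DESeq2 1.42.0, no filter on low counts, a minimum of 10 counts per sample, limma 3.58.1 on the deposited log2 values, a test against a 2-fold change, an adjusted p under 0.01, a GC correction (loess, span 0.4, genes with mean log2 CPM above 3), subtraction of the receptor-gene rate per kilobase, each sample left out in turn and, chosen after seeing the data, WT sample 2 and Mmp13-/- sample 6 left out together. The edgeR test with TMM, RLE, upper-quartile or no factors and with the GC correction, DESeq2 and limma were first tested on simulated data. The other alternatives and the permutation test were not. The simulated data had few changed genes, as many up as down, and no trend with GC content or background reads. They could not show how the factors or the GC correction act where many genes change or GC content matters.

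Genes named are the 8 members, Mmp13, in each list its first 2 genes and the 2 of smallest p, the neighbours of the members and the 5 nearest profiles, with exceptions named in the text. The members and lists were chosen with earlier results of these data known. Some genes of these lists are not reported here and were left out of their counts.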

Additional observations from a re-analysis of the deposited data

How the results depend on the processing

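Of the 8 genes, 4 were called, and 3 to 5 were called when each sample was left out in turn. Ppbp and Gp6 stayed called in all 19 other settings, Gp9 in all but the test against a 2-fold change. That test gave 2 of the 8, 9 of the 48 companion genes (20 otherwise) and 3047 of all genes (7381 otherwise). All genes called were 4666 with at least 10 counts in every sample and 14325 with no filter. Pf4 fell just under 2-fold with no filter and with limma, at 0.96 in both. The log2 fold changes of Gp1ba and Gp1bb turned from -0.38 and -0.61 to 0.095 and 0.67 with the GC correction, and that of Gp5 (0.19) ranged from -0.13, without WT replicate 2, to 0.39 when samples were left out; the causes were not tested. Treml1 was called with total counts (1.12) and with the GC correction (1.82). The share of called genes that were higher was 67.8%, and 81.4% with upper-quartile factors, 77.2% with total counts, 78.6% with no filter, 78.1% in the test against a 2-fold change and 88.1% with the GC correction. Over all genes the median was 0.10 on the log2 scale, 0.21 with total counts and 0.32 with factors from the upper quartile, so changes near that size depend on the scaling. With no filter, which adds genes of low count, it was 1.30. Gp6 was above Ppbp with limma (2.60 and 2.53) and without WT replicate 5 (2.91 and 2.58), and Gp9 was above both with the GC correction. No paired analysis was possible because the genotypes share only the replicate number 2. Low WT counts of Gp6, Gp9 and Treml1 limit the precision of their fold changes.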
